A study of Mus musculus with 33 samples.

Results

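Retinoic acid receptor (RAR) signaling was switched in opposite directions in mouse cultures, and gene expression was compared after 1.5 days (D1.5). The comparison used 6 of the 33 RNA-seq libraries in the series, all those labelled D1.5: 3 from cultures with CD1530 and 3 from cultures with AGN. All 17120 genes of the count table entered the test. The libraries came from unsorted monolayers, derived from mouse embryonic stem cells carrying the ScxGFP reporter and taken through embryoid bodies to paraxial mesoderm (PM), the tissue that forms somites. The reporter marks Scx, a transcription factor of tendon progenitors. PM had been made with the BMP receptor inhibitor LDN-193189, the Wnt pathway activator CHIR and, in the improved protocol, AGN 193109, so both arms may have met the inverse agonist before induction. During induction both arms received TGFβ1, the smoothened agonist SAG and FGF2. The CD1530 arm received CD1530, an agonist selective for RARγ, and the AGN arm received AGN 193109, an inverse agonist of the RARs, at a lower concentration than CD1530. The induction media were intended for tendon (CD1530) and fibrocartilage (AGN). No culture without a ligand was sampled at D1.5, so every difference below is CD1530 relative to AGN and cannot be divided between the ligands. A decline, or a gene said to fall, means lower in CD1530 than in AGN, whatever its course over time. Which stem cell line gave which replicate is not stated in the sources used here.

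RARs sit on DNA as partners of RXR receptors. With an agonist bound they recruit coactivators and transcription of their targets rises, whereas an inverse agonist strengthens their hold on corepressors. In the embryo retinoic acid patterns the trunk and tail: it turns on Hox genes from the 3′ end of each cluster, opposes FGF signaling in the tailbud as somites form, and induces the enzymes that degrade it.

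Total counts ran from 17.6 M to 22.4 M in the 6 libraries. Replicates of a condition correlated with Pearson r between 0.99715 and 0.99753 across genes and none were copies. Mitochondrial genes took between 0.818% and 1.07% of counts. Relative to the other libraries of their condition, long genes were shifted up in AGN replicate 2 (Spearman rho of the deviation with exon length 0.338 over 13617 genes) and down in AGN replicate 3 (−0.342), while AGN replicate 1 showed little trend (0.029). The fold changes themselves had a rho of 0.171 with exon length. The part of this trend in single results was not tested. With a correction for length and GC content the number of genes called was 5047. Of the calls below, 4358 were called again in the same direction.

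CD1530 and AGN cultures differed widely but mostly by small amounts at D1.5. Of 17120 genes, 4611 were called at an adjusted p under 0.05 (26.9%, edgeR's quasi-likelihood test with Benjamini-Hochberg adjustment), 2596 higher in CD1530 (15.2%) and 2015 lower (11.8%). Among the called genes 63% had an absolute log2 fold change under 0.5, and the median absolute value was 0.358. A log2 fold change of 1 or more in size was reached by 738 genes (4.31%), of which 460 were higher (2.69%) and 278 lower (1.62%). A log2 fold change of 2 or more was seen for 143 higher genes and 48 lower ones. The median over all genes was 0.008. In a bulk culture, fewer cells of a type and less RNA per cell cannot be told apart.

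**Figure D1:**
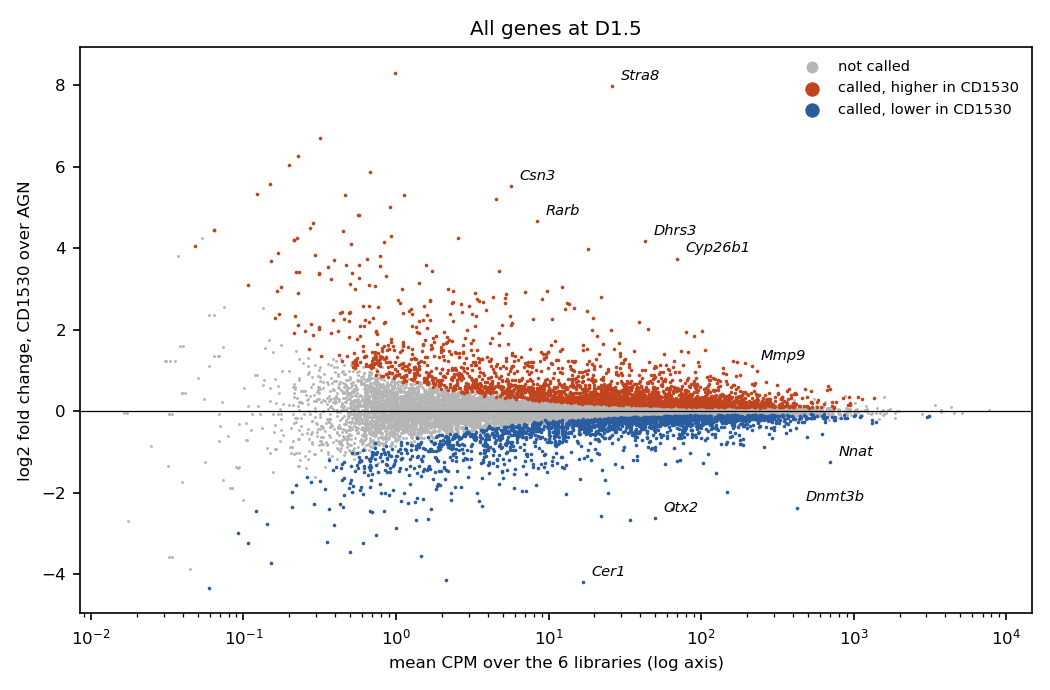
Log2 fold change of CD1530 over AGN at D1.5 against the mean level (CPM, log axis), with 1 point for each gene; red and blue points passed the adjusted p of 0.05. The retinoid genes Stra8, Rarb, Dhrs3 and Cyp26b1 stand at the upper edge, and Cer1 at −4.21 is the lowest labelled gene.

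Established targets of the RARs were higher with CD1530. A list of 12 such genes had all 12 members called higher, against 15.2% of all genes, with a median log2 fold change of 3.26. In each of the 12 every CD1530 library lay above every AGN library, which held for 23.1% of all genes; the libraries of the conditions did not overlap for 42.5% of all genes, and AGN lay wholly above CD1530 for 19.4%. Levels below are in CPM, the customary scale of counts relative to the library total, after TMM normalization, and are given for replicates 1, 2 and 3 in turn.

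Rarb, the receptor gene that is itself a classic RAR target, and Cyp26a1, which encodes an enzyme that oxidizes retinoic acid, are shown first. Both hold letters that match the retinoic acid response element in the stretch just upstream of their start. The searched element was a direct repeat of the 6 bases AGGTCA with a spacer of 5 bases, in which either purine was allowed at the first position and either G or T at the third, read on both strands of the RefSeq windows that run from 250 bases before to 50 bases after each gene's start. In the sequences, taken from RefSeq (GRCm38.p6) on the strand of the gene and printed 5′ to 3′, capitals mark the motif letters.
Rarb, chr14:16575493-16575549, minus strand: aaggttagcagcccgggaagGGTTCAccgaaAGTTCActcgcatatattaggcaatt
Cyp26a1, chr19:37697756-37697807, plus strand: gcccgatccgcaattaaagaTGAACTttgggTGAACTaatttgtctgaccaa
In Rarb the repeat lay 53 to 37 bases before the start, and in Cyp26a1 it was on the opposite strand, 32 to 16 bases before it. The same letters were found for 2 of the 317 genes with a window that were called higher by a log2 fold change of at least 1 (0.631%), which are these 2, and for 0 of the 193 called lower by as much. Over all calls with a window, whatever their size, they were found for 3 of 1955 genes called higher (0.153%) and 2 of 1483 called lower (0.135%). They were present in 7 of 11696 measured genes with a window (0.0598%) and in 32 of all 32851 windows (0.0974%). Of the 12 targets, 8 had a window in the table. With a spacer of 2 bases in place of 5, the repeat was present for 1 of the 317 genes, Tinagl1, and in 88 of all 32851 windows (0.268%). A match is a run of letters and does not show binding, and a window without one says nothing of more distant elements.

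Rarb was at 16.3, 15.9 and 16.2 CPM in the CD1530 libraries and at 0.607, 0.790 and 0.494 CPM in the AGN libraries. The groups were far apart and the level was 25.2-fold higher in CD1530 (log2 fold change 4.66, SE 0.17, adjusted p = 3.23e-24 by edgeR's quasi-likelihood test). The other adjusted p-values below come from the same test. Rara and Rarg, the other receptor genes, were also higher in CD1530 than in AGN, by far less. Mean levels were 93.6 against 71.4 CPM for Rara (log2 fold change 0.39) and 140.5 against 78.4 CPM for Rarg (0.84). Rxra, a partner receptor, was lower in CD1530 (−0.23, SE 0.05, adjusted p = 0.00013). Of the 14 receptor and corepressor genes, 6 were called higher and 1 lower, against 15.2% and 11.8% of all genes. The corepressor gene Ncor1 did not pass (log2 fold change 0.07), while Nrip1, a ligand-dependent corepressor that is an RAR target, was at 112, 107 and 116 CPM with CD1530 against 66.9, 75.5 and 62.1 CPM with AGN. Nr6a1, an orphan nuclear receptor of trunk development, was called with a log2 fold change of 1.86 (SE 0.06).

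Genes that clear or carry retinoids formed the next group. Of 18 retinoid metabolism and binding genes measured, 7 were called higher and 2 lower, against 15.2% and 11.8% of all genes. Dhrs3, which reduces retinaldehyde back to retinol, was at 85.6, 81.1 and 79.0 CPM with CD1530 and at 3.86, 4.93 and 4.64 CPM with AGN, 18.2-fold higher (log2 fold change 4.18, SE 0.08, adjusted p = 7.69e-34). Cyp26b1, which degrades retinoic acid, was at 128, 131 and 126 CPM against 9.98, 10.1 and 8.59 CPM, a 13.4-fold difference (3.75, SE 0.09). In both genes the CD1530 libraries lay within a narrow band well above every AGN library. Cyp26a1 stood at 74.6, 71.5 and 68.6 CPM against 17.3, 17.9 and 17.7 CPM, 4.05-fold higher (2.02, SE 0.06). Its relative Cyp26c1 was near 2 CPM at most and also higher (1.57, SE 0.33, adjusted p = 0.000218). Stra6, the membrane receptor for the retinol carrier, was higher by 2.81 on the log2 scale, and the intracellular carrier Crabp2 was 1.57-fold higher. The genes that make retinoic acid went the other way or did not pass: Rdh10, which oxidizes retinol, fell by 0.66 on the log2 scale, Aldh1a3 by 0.68, and Aldh1a2 was at −0.13 (adjusted p = 0.343). At D2.5 the mean of Aldh1a3 was higher with CD1530, at 88.9 CPM against 67.8 CPM with AGN. Crabp1, another carrier, was near 134 CPM in AGN and did not differ beyond its spread (log2 fold change 0.01, SE 0.08).

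**Figure D2:**
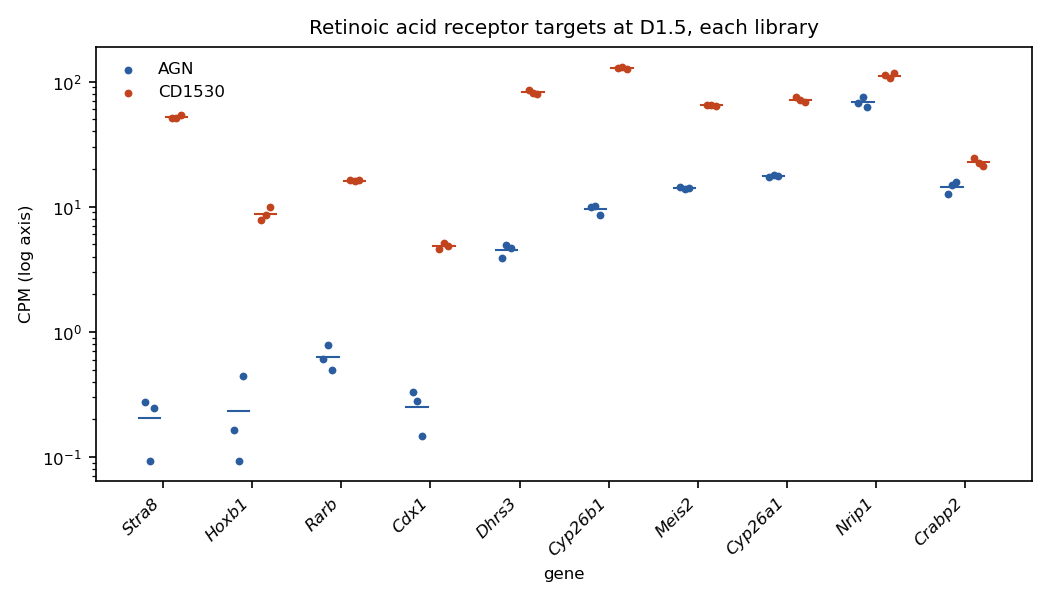
CPM (log axis) of 10 of the 12 retinoic acid receptor targets in each of the 3 CD1530 (red) and 3 AGN (blue) libraries at D1.5, with a bar at each mean. In every gene drawn the CD1530 points lie above the AGN points, with fold changes from the fit between 252.8 in Stra8 and 1.57 in Crabp2.

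Stra8, the retinoic acid-induced gate to meiosis in germ cells, had the largest fold change of all called genes that averaged 50 counts or more. It was at 51.0, 51.5 and 54.0 CPM with CD1530 and at 0.276, 0.0930 and 0.247 CPM with AGN, where no library had more than 5 counts. The fold change from the fit was 252.8 (log2 fold change 7.98, SE 0.15, adjusted p = 3.84e-34). The AGN level rests on so few counts that the size of this fold change is only roughly known. Of 7 genes of meiotic entry, 6 were called higher, against 15.2% of all genes. Rec8, a meiotic cohesin, was 2.03-fold and Sycp1, a synaptonemal complex protein, 2.37-fold higher, and the germ cell RNA regulators Dazl and Ddx4 were 1.52-fold and 1.33-fold higher. Sycp3 did not pass (log2 fold change 0.35, adjusted p = 0.136).

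The Hox genes differed by their position in the cluster. Among paralogs 1 to 5, which lie toward the 3′ end, 13 of 14 measured genes were called higher, with a median log2 fold change of 1.01. Paralogs 6 to 9 had 4 of 12 called higher and a median of 0.27. Paralogs 10 to 13 had 1 of 12 called higher and 2 lower, and a median of −0.59, and 4 lower without CD1530 replicate 1 or without AGN replicate 1. The share of all genes called in either direction was 26.9%. Hoxb1, which patterns the hindbrain, was at 7.78, 8.57 and 10.0 CPM with CD1530 and at 0.165, 0.0930 and 0.444 CPM with AGN (log2 fold change 5.20, SE 0.27, adjusted p = 2.16e-19). Its lowest CD1530 library was far above its highest AGN library, and without AGN replicate 3 the log2 fold change was 6.06. Hoxa4 (2.12) and Hoxa5 (1.84) were also well separated in log2 fold change, while Hoxa2 was called at only 0.29 and lost its call without AGN replicate 2 (0.24, adjusted p = 0.0865). Hoxd1 was the anterior gene not called, at 0.64 with an adjusted p of 0.0566. It was called with the likelihood ratio test (adjusted p = 0.0416), without CD1530 replicate 3 (0.75, adjusted p = 0.0448), without AGN replicate 3 (1.02, adjusted p = 0.0066) and with the correction for length and GC content (0.67, adjusted p = 0.0334).

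At the other end, Hoxd10 and Hoxd11, genes of the posterior trunk and limb, fell by 0.74 and 0.69 on the log2 scale. Hoxb13 was called higher (2.41, SE 0.50) from levels under 0.9 CPM in every library. Its log2 fold change was 3.41 without AGN replicate 1 and 1.79 without AGN replicate 2, and the call was lost without AGN replicates 2 and 3 together (1.30, adjusted p = 0.154). By cluster, 7 of 11 Hoxa, 8 of 10 Hoxb, 2 of 9 Hoxc and 1 of 8 Hoxd genes were called higher. The share of all genes called higher was 15.2%. The counting was not stated to use strand, and the Hox clusters hold antisense transcripts, so reads of overlapping partners cannot be told apart.

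**Figure D3:**
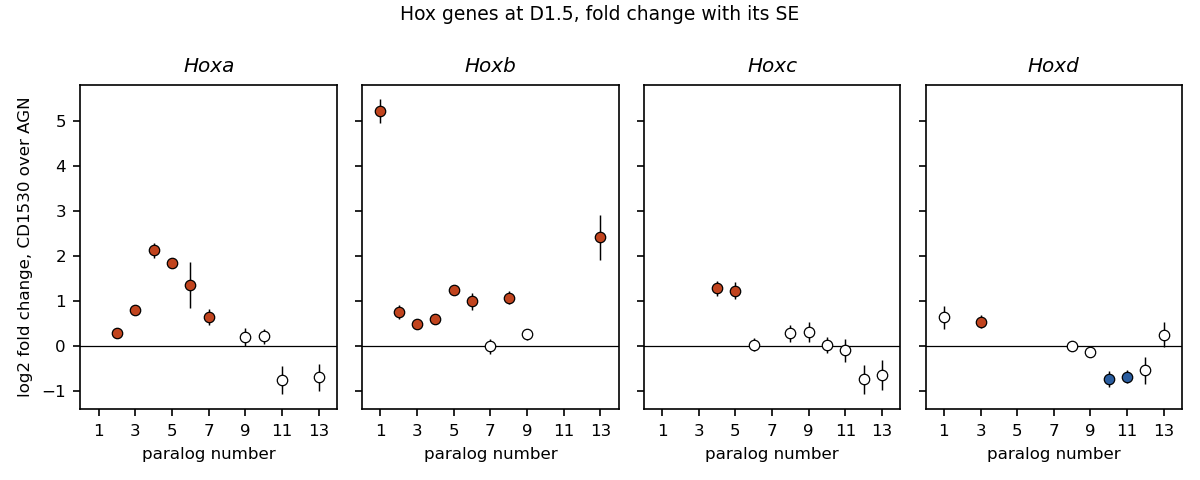
Log2 fold change (CD1530 over AGN at D1.5) with its SE for 37 of the 38 measured Hox genes, by cluster and paralog number; filled points were called and open points were not. Hoxb1 at 5.20 and Hoxb13 at 2.41 are the highest drawn, and apart from Hoxb13 the paralogs from 9 on lie between −0.76 and 0.31.

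Among 9 listed partners of Hox proteins, 5 were called higher, against 15.2% of all genes, and 4 did not pass. Meis2, an RAR target and DNA-binding cofactor of Hox proteins, was at 65.1, 64.8 and 63.4 CPM against 14.4, 13.9 and 14.02 CPM (4.56-fold, log2 fold change 2.19, SE 0.08). Pbx2 was 1.70-fold higher, and Meis1 was higher by 0.46 on the log2 scale. The call of Meis3 (0.27, adjusted p = 0.0219) was lost without CD1530 replicate 1 (0.22, adjusted p = 0.113) and without AGN replicate 2 (0.28, adjusted p = 0.05035) or 3 (0.24, adjusted p = 0.0961). Pbx3, Pbx4, Pknox1 and Pknox2 did not pass, with log2 fold changes between −0.23 and 0.07.

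Genes of the primed epiblast and of the Nodal pathway included several of the largest negative fold changes. Of 12 measured, 8 were called lower and 3 higher, against 11.8% and 15.2% of all genes. Cer1, a secreted antagonist of Nodal, BMP and Wnt, was at 1.58, 1.53 and 2.04 CPM with CD1530 and at 33.4, 31.9 and 30.7 CPM with AGN (log2 fold change −4.21, SE 0.12, adjusted p = 1.89e-28). Otx2, a homeobox factor of the epiblast and forebrain, was at 14.4, 15.3 and 12.4 CPM against 83.8, 86.4 and 87.2 CPM (−2.62, SE 0.07). Dnmt3b, the de novo DNA methyltransferase of the epiblast, was abundant at 142, 140 and 134 CPM against 716, 730 and 703 CPM (−2.37, SE 0.04, adjusted p = 1.06e-35). Every AGN library was several fold above every CD1530 library in these genes. Fgf5, a primed epiblast ligand, fell by 2.03 on the log2 scale and Pou3f1 by 0.95. Lefty1, a Nodal inhibitor and target, went against the group at 131, 137 and 131 CPM with CD1530 and 60.6, 61.8 and 61.8 CPM with AGN (2.17-fold), and Nodal itself was 1.40-fold higher. Lefty2 did not differ beyond its spread (0.02, SE 0.04).

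Pluripotency genes were still expressed in both conditions and split by gene. Of 13 measured, 5 were called higher and 6 lower in CD1530, against 15.2% and 11.8% of all genes. None reached a log2 fold change of 1. Nanog, a core pluripotency factor, was at 204, 214 and 212 CPM against 152, 146 and 152 CPM (0.48, SE 0.04). Pou5f1 (Oct4) was at 323, 318 and 324 CPM against 389, 364 and 389 CPM (−0.24, SE 0.05). Lin28a, an RNA-binding protein of undifferentiated cells, had the largest decline of this list at −0.58. The sum over the 13 genes ranged from 2492 to 2501 CPM with CD1530 and from 2380 to 2496 CPM with AGN.

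The Zscan4 and Usp17l families, which mark rare 2-cell-like embryonic stem cells, were higher in CD1530, with few counts in AGN. Of 15 listed genes 12 were measured, and 10 were called higher, against 15.2% of all genes. In a fit of the 6 D1.5 libraries alone, 7 were called higher. For 9 of the 12, no library of at least 1 condition had more than 3 counts. Zscan4d was at 2.56, 1.62 and 1.69 CPM with CD1530 and at 0 counts in all 3 AGN libraries, at least 12.96-fold higher when 3 counts per library are taken as the floor. For Zscan4a, with at most 1 count in any AGN library, the same bound was 8.82-fold. Zfp352 and Eif1a from the same list did not pass (adjusted p 0.418 and 0.672). Members of these families are near-identical copies, so the division of reads among them is uncertain and their calls are not independent of each other. The counts cover counting error only.

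Streak and tailbud regulators moved in both directions. Of 16 measured, 6 were called lower and 3 higher, against 11.8% and 15.2% of all genes, and 7 did not pass. T (brachyury), the T-box factor of the streak and notochord, was at 7.02, 6.26 and 7.37 CPM against 17.9, 18.4 and 16.6 CPM (log2 fold change −1.36, SE 0.08, adjusted p = 5.78e-17). Gsc, an organizer homeobox gene, fell by 1.44 and Evx1 by 1.20 on the log2 scale. Fgf8, the tailbud ligand that retinoic acid opposes, was under 2 CPM in every library and fell by 1.17 (SE 0.27, adjusted p = 0.000968). The 3 higher genes were Cyp26a1, Wnt3a and Cdx1. Cdx1, an RAR target that regulates Hox genes, was at 4.63, 5.15 and 4.85 CPM against 0.331, 0.279 and 0.148 CPM (4.25, SE 0.26), and its CD1530 and AGN libraries did not overlap. Wnt3a had at most 3 counts in any AGN library and was at least 10.5-fold higher in CD1530.

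Among 16 genes of the presomitic mesoderm and segmentation clock, 6 were called lower and 2 higher, against 11.8% and 15.2% of all genes. Only 4 were called lower without CD1530 replicate 2 or without AGN replicate 1 or 2. Dll3, a Notch pathway ligand of the clock, was at 3.38, 2.69 and 2.73 CPM against 10.7, 11.8 and 11.4 CPM (−1.96, SE 0.14). Tbx6 and Msgn1, which define presomitic mesoderm, were near the limit of detection, with Tbx6 under 0.6 CPM in every library. Msgn1 was called lower but lost its call without CD1530 replicate 2 (−2.24, adjusted p = 0.0901). The call was also lost without AGN replicate 1 (−2.55, adjusted p = 0.0668) or 2 (−2.67, adjusted p = 0.0526). Mesp2, which sets the somite boundary, was higher (1.97, SE 0.42) at no more than 1.3 CPM. Heyl, a Notch target, was the abundant exception at 72.8, 74.9 and 75.1 CPM against 39.2, 38.8 and 36.2 CPM (1.95-fold).

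Somite and sclerotome factors moved in both directions, with 7 of 19 called higher and 6 lower, against 15.2% and 11.8% of all genes. Pax1, Pax9 and Nkx3-2, factors of the sclerotome that forms the cartilage of the spine, were lower with CD1530. Pax1 stood at 8.55, 7.46 and 7.37 CPM against 12.6, 13.1 and 13.4 CPM (−0.75, SE 0.11), and Pax9 fell by 0.83. Nkx3-2, a chondrogenic homeobox factor, was at 2.89, 2.97 and 2.99 CPM against 7.72, 6.60 and 7.65 CPM (−1.31, SE 0.15, adjusted p = 1.8e-09). No CD1530 library reached the lowest AGN library in these genes. Meox1, a general somite factor, was at 89.3, 94.1 and 91.4 CPM against 53.3, 52.6 and 56.1 CPM (0.76, SE 0.05), whereas its relative Meox2 fell by 0.76. Foxd2 (1.84) was also higher, as was Tcf15 (0.56), whose adjusted p was 0.0674 in a fit restricted to the 6 D1.5 libraries.

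The tendon and cartilage lists, for which the media were intended, were only partly separated at D1.5. Of 20 tendon genes 4 were called higher and 4 lower, 40.0% against 26.9% of all genes, and the median log2 fold change was −0.05. Scx, the marker of the reporter, was already abundant in both, at 775, 770 and 754 CPM with CD1530 and 692, 707 and 741 CPM with AGN (0.10, SE 0.04, adjusted p = 0.0418). The groups did not overlap but the margin was small. The call was lost in 11 of 18 alternative analyses, among them those without each CD1530 replicate and without AGN replicate 1 or 2, with adjusted p-values up to 0.183. Mkx, a tendon homeobox factor, was at 21.7, 23.5 and 22.3 CPM against 13.6, 15.3 and 14.96 CPM (1.54-fold). Dcn, a collagen-binding proteoglycan, was 1.88-fold higher with CD1530, and Tnc 1.40-fold. Fmod, another small proteoglycan that binds collagen, ran the other way at 43.3, 41.6 and 41.1 CPM against 96.0, 95.4 and 101.8 CPM (−1.22, SE 0.07, adjusted p = 2.42e-15), as did Thbs4 (−1.13). Col1a1, the main collagen of tendon, was between 3536 and 3969 CPM in the 6 libraries with no difference beyond their spread (−0.02, SE 0.10). Tnmd, a marker of mature tendon, was under 0.9 CPM throughout (adjusted p = 0.0596).

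Of 20 cartilage genes 8 were called lower in CD1530 and 1 higher, against 11.8% and 15.2% of all genes. The median log2 fold change was −0.26. Col2a1, the major cartilage collagen, was at 385, 394 and 380 CPM with CD1530 and at 580, 613 and 595 CPM with AGN (−0.62, SE 0.04, adjusted p = 1.29e-15). Col9a3 was at 15.6, 14.9 and 16.4 CPM against 40.7, 36.2 and 39.5 CPM (−1.31, SE 0.08), and Matn4, a matrix adaptor protein, fell by 1.31 as well. Sp7, an osteoblast factor, fell by 1.40 at low levels. Sox9, the master regulator of cartilage, did not pass at 96.4, 106 and 97.9 CPM against 103, 108 and 108 CPM (−0.09, SE 0.05, adjusted p = 0.197), nor did Sox5 (−0.26), Sox6 (−0.17) or Acan (−0.26). Ihh, a ligand of hypertrophic cartilage, had at most 3 counts in any AGN library and was at least 6.41-fold higher in CD1530. With the correction for length and GC content, 13 cartilage genes were lower in place of 8, among them Sox5, Sox6 and Acan. Sox5 was called lower in 6 of 18 alternative analyses, among them that without AGN replicate 3 (−0.30, adjusted p = 0.047). Of 10 measured dermomyotome and muscle genes, 5 were called lower, against 11.8% of all genes, and 3 without CD1530 replicate 1. Tnnt1 was among the 5 (−1.26, SE 0.12). The other 4 genes of this list, Pax7, Myf5, Myf6 and Myl1, were not in the count table.

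**Figure D4:**
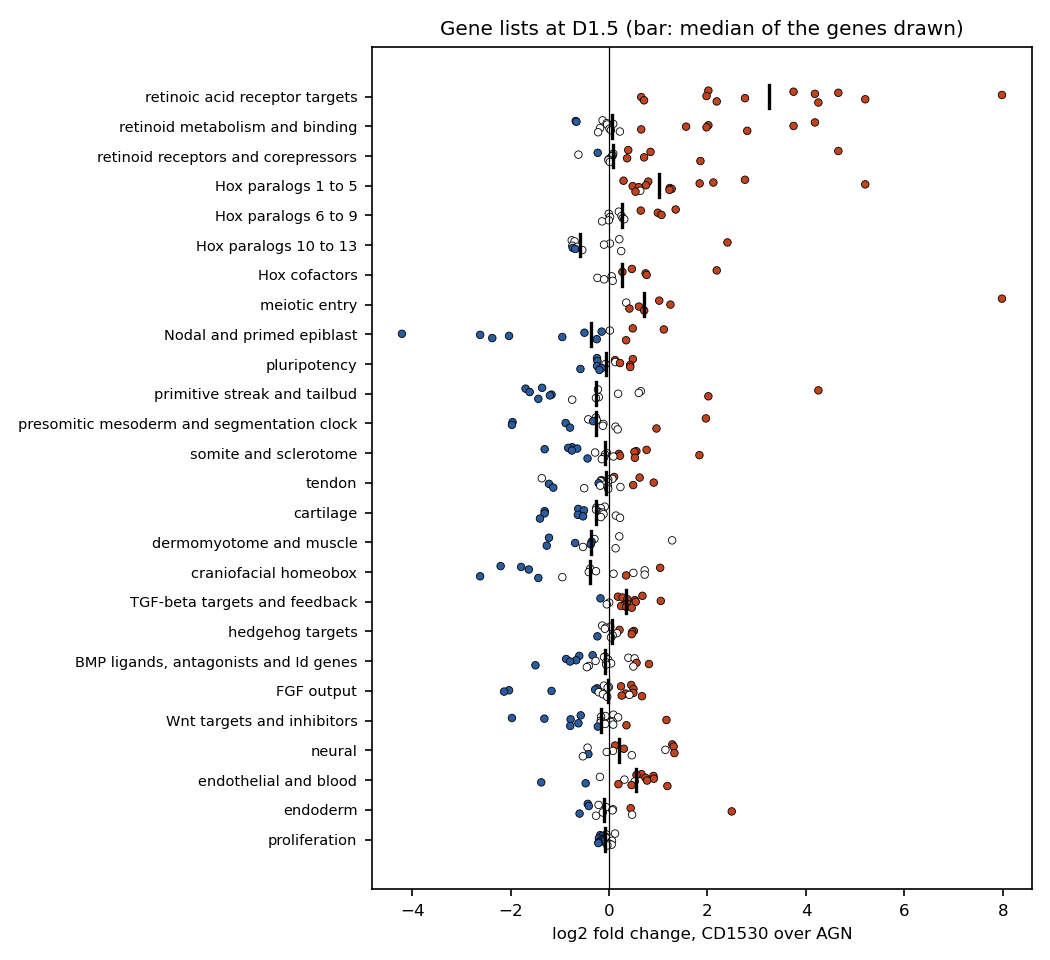
Log2 fold change at D1.5 of each measured member of 26 gene lists, leaving out genes at the counting floor in either condition; red and blue points were called higher and lower in CD1530, open points were not called, and the bar is the median of the points drawn. The retinoic acid receptor targets, with a median of 3.26, stand apart from the tendon, hedgehog and proliferation lists, whose medians lie near 0.

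TGF-beta targets and feedback genes were broadly but slightly higher with CD1530, although TGFβ1 was in both media. Of 15 measured, 12 were called higher and 1 lower, against 15.2% and 11.8% of all genes. The median log2 fold change was 0.35. The ligand Tgfb2 was at 65.6, 67.9 and 65.0 CPM against 32.9, 32.2 and 30.7 CPM, 2.07-fold higher (log2 fold change 1.05, SE 0.05, adjusted p = 1.18e-20). Tgfbi, a matrix protein named for its induction by TGF-beta, was the member called lower (−0.17, SE 0.03).

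The main hedgehog output genes described here did not pass the test with all libraries. Gli1 (−0.14), Ptch1 (0.02) and Hhip (−0.08), direct targets of the pathway, had adjusted p-values between 0.183 and 0.855, and SE of at most 0.12. Without CD1530 replicate 3, Gli1 was called lower (−0.23, adjusted p = 0.0318). Of 12 listed hedgehog genes 5 were called, against 26.9% of all genes. They were the coreceptors Boc (0.51), Cdon (0.47) and Gas1, the factor Gli3 (0.46) and, lower, Foxf2 (−0.24). With AGN replicate 1 as the only AGN library at D1.5, Cdon was at 0.39, Gli3 at 0.44 and Foxf2 at −0.13. Gas1 (0.21, adjusted p = 0.0202) lost its call without CD1530 replicate 1 (0.18, adjusted p = 0.102) or 2 (0.18, adjusted p = 0.0989) and without AGN replicate 1 (0.16, adjusted p = 0.142). For BMP signaling, 6 of 21 genes were lower and 2 higher, against 11.8% and 15.2% of all genes. Bmp4 was lower in CD1530 by 0.60 and its antagonists Grem1 and Nog by 0.67 and 0.87 on the log2 scale. Mean Bmp4 was 29.4 CPM with CD1530 and 44.7 CPM with AGN, both above the 15.6 CPM of PM. The target Id1 did not pass (0.04, SE 0.09), Id2 was 1.75-fold higher and Id4 was lower (−1.49, SE 0.19).

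FGF genes also moved in both directions, with 7 of 19 called higher and 5 lower, against the same 15.2% and 11.8%. The feedback gene Dusp6 was near 290 CPM in either condition and did not differ beyond its spread (−0.03, SE 0.03), Etv4 was higher (0.50) and Etv5 lower (−0.28). Of the 5 lower genes, 3 were the ligands Fgf5, Fgf8 and Fgf15. Of 20 Wnt genes 7 were lower (11.8% of all genes) and 3 higher (15.2% of all genes). The secreted inhibitor Dkk1 was at 2.72, 2.50 and 2.90 CPM against 10.4, 11.1 and 10.5 CPM (−1.97, SE 0.13), and Dkk2 and Sfrp1 fell by 1.31 and 0.78, while Sfrp2 was 2.24-fold higher. Axin2, a general readout of the pathway, did not pass (0.09, SE 0.11).

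Markers of other cell types that a differentiating stem cell culture can hold also moved. Of 14 endothelial and blood genes, 9 were called higher with CD1530 and 2 lower, against 15.2% and 11.8% of all genes. The lower ones were Gata1, an erythroid factor under 1.5 CPM in every library (−1.38), and the embryonic globin gene Hbb-bh1 (−0.47). Gata1 lost its call without AGN replicate 2 (−0.98, adjusted p = 0.1055). Kdr, the VEGF receptor, was at 78.4, 86.7 and 78.8 CPM against 44.2, 45.2 and 41.0 CPM (1.87-fold), and Sox18 was 2.27-fold higher. The summed level of the 14 genes ranged from 607.8 to 638.8 CPM with CD1530 and from 417.9 to 448.6 CPM with AGN. Neural genes were mixed: of 13, 5 were called higher and 1 lower, against 15.2% and 11.8% of all genes, and 7 did not pass. The higher ones included Pax6 (1.31), Sox1 (1.29) and Prph (1.33). Over the list the log2 fold changes ran from −0.53 to 1.33, with a median of 0.30. The 13 genes summed to between 709.3 and 725.5 CPM with CD1530 against 638.9 to 663.6 CPM with AGN. Neurog2, a defining factor of neuronal commitment, had at most 3 counts in any library of either condition. Endoderm genes were called higher in 2 and lower in 3 of 12 cases, against 15.2% and 11.8% of all genes, and 7 did not pass. The share of higher calls was near that of all genes, and the median log2 fold change was −0.09. Apoa1, an apolipoprotein, was 5.63-fold higher, and Epcam, an epithelial adhesion protein, was lower by 0.60 on the log2 scale. The part of such cells in the results above was not tested. Of 16 proliferation genes 8 were called lower, against 11.8% of all genes, and 5 without CD1530 replicate 3. The declines were at most 0.22 on the log2 scale.

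Several of the largest differences fell outside these lists. Csn3, a milk casein, was at 10.8, 10.4 and 12.05 CPM with CD1530 and at 0.221, 0.186 and 0.296 CPM with AGN (log2 fold change 5.53, SE 0.27, adjusted p = 9.35e-19). Aqp3, a water and glycerol channel, was 15.7-fold higher, Mafa, a beta cell transcription factor, 10.8-fold, Dpp4, a surface peptidase, 8.33-fold and Nphs1, the slit diaphragm protein nephrin, 7.70-fold. Ccdc88b (7.63-fold), Misp3 (7.44-fold) and Ntrk3, the receptor for neurotrophin 3 (6.94-fold), completed the 15 largest. On the lower side, Enpp2, which makes lysophosphatidic acid, was at 9.47, 9.41 and 9.01 CPM against 59.6, 59.2 and 60.0 CPM (−2.68, SE 0.07, adjusted p = 1.6e-29). Vrtn, which sets vertebral number, fell by 2.57 and Pim2, a survival kinase, by 2.39 on the log2 scale. Jph4, Dlx1, Nptx1, Bmp3, Penk and Ppp1r1a had log2 fold changes between −2.34 and −1.88.

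Among the 10 most abundant genes called with a log2 fold change beyond 1 in either direction, 5 were higher and 5 lower. Nnat, an imprinted membrane proteolipid, was at 422, 411 and 408 CPM with CD1530 and at 984, 972 and 999 CPM with AGN (−1.25, SE 0.04). Mmp9, a gelatinase, was at 296, 299.6 and 288 CPM against 134, 139 and 135 CPM, 2.16-fold higher, and the plasminogen activator Plau was 2.34-fold higher. Sparcl1, a matricellular protein, and Alpl, the tissue-nonspecific alkaline phosphatase, were 2.28-fold and 2.33-fold higher, and Tfpi2, a protease inhibitor, 2.09-fold. Pga5, Emb and Penk joined Dnmt3b on the lower side, at −1.52, −1.04 and −1.99.

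To place D1.5 in the time course, the same contrast was set beside those at D0.75 and D2.5, which use other libraries. At D0.75, 3076 genes were called (18.0%), and 1879 were called at both times, 40.8% of the D1.5 calls and 61.1% of the D0.75 calls, 1782 in the same direction and 97 in the opposite one. CD1530 replicate 1 at D0.75 stood apart from its replicates, with r of 0.9927 and 0.99269 to them against 0.99765 between them. Without it 3003 genes were called at D0.75 and 1934 of them at D1.5, 1862 in the same direction and 72 in the opposite one. At D2.5, 6845 genes were called (40.0%), and 3350 were called at both times, 72.7% of the D1.5 calls and 48.9% of the D2.5 calls, 3211 in the same direction and 139 in the opposite one.

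The change of the contrast from D0.75 to D1.5 was called for 1541 genes (9.0%), and that from D1.5 to D2.5 for 1972 genes (11.5%), both as interaction terms of the same fit. The first number was 649 when only the 12 libraries of D0.75 and D1.5 were fitted. Of the 1541, 557 kept their sign and were larger at D1.5, 102 kept it and were smaller, and 882 had opposite signs at the 2 times, of which 97 were called at both. Of the 1972, 981 kept their sign and were smaller at D1.5 than at D2.5, 181 were larger and 810 had opposite signs. Rarb illustrates the first kind, with log2 fold changes of 1.77 at D0.75, 4.66 at D1.5 and 7.49 at D2.5, while its AGN mean went from 2.29 to 0.63 to 0.124 CPM. Lefty1 was of the crossing kind, at −0.78, 1.11 and 3.33 (change from D0.75 of 1.89, SE 0.06, adjusted p = 1.39e-24). Angpt2, a ligand of endothelial Tie2, crossed as well, from 8.40 CPM with CD1530 against 14.3 CPM with AGN at D0.75 to 29.2 against 11.9 CPM at D1.5. Acan, the core proteoglycan of cartilage, did not pass at D1.5 (5.44 ± 0.43 against 6.49 ± 0.67 CPM, SD, n = 3) and was at 6.34 against 28.9 CPM at D2.5.

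**Figure D5:**
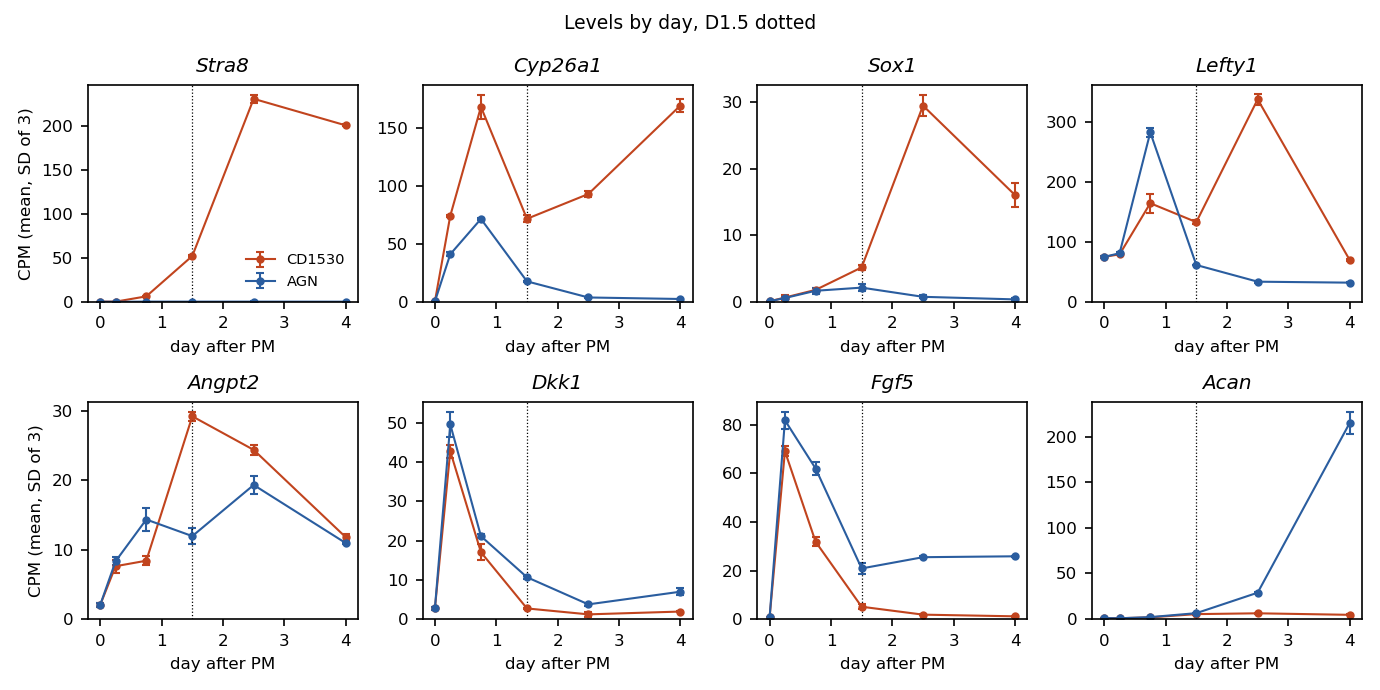
Mean CPM with SD of 3 libraries for 8 genes from PM (day 0) to D4 with CD1530 (red) or AGN (blue), the dotted line marking D1.5; each panel has its own linear axis from 0. Angpt2 and Lefty1 changed order between D0.75 and D1.5, and the curves of Acan part between D1.5 and D2.5.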

How the data were processed

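RNA-seq libraries of mouse cultures were compared by condition as labelled. Per the labels and the study's methods, the authors aligned reads with STAR to GRCm38 and assigned them with featureCounts. Values in the deposited table are raw, unnormalized counts of reads by gene. Strand setting and annotation are not given in the sources used here. All 33 libraries (11 groups of 3) entered 1 fit in R 4.3.3 with edgeR 4.0.16 (TMM, robust quasi-likelihood F test, no covariates), since groups then share their estimate of spread. All 17120 genes passed the edgeR filter on low counts. P-values were adjusted over all genes by the Benjamini-Hochberg method and genes called under 0.05. The study's methods call the replicates biological without saying whether cultures were separate, so p-values measure the spread between these samples. Fold changes are CD1530 over AGN, with SE. A group with at most 3 counts in every library was at the floor, for counting error only.

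Named genes were list members, the 15 largest changes in each direction among calls averaging 50 counts or more, with no overlap between libraries and no provisional name, the 10 most abundant calls with a log2 fold change beyond 1 in either direction, and the 6 largest changes in each direction of each interaction. The members and the gene lists were chosen with earlier results of these data known. Gene positions came from GENCODE M21. Alternatives were other scalings, filters, tests (DESeq2 1.42.0, likelihood ratio), subsets, replicate blocks and leaving out each library, and the correction for length and GC content and the joint omission of AGN replicates 2 and 3 were added after seeing the data. The fit was tested on simulated data. Some list members count in the totals but are not reported here singly.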

Additional observations from a re-analysis of the deposited data

Results flagged for a closer look

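The contrast of CD1530 and AGN differed between time points by an interaction term in the edgeR fit, for 1541 genes from D0.75 to D1.5 (649 in a fit of the 12 libraries of these times alone) and 1972 genes from D1.5 to D2.5. The values below are changes of the log2 fold change, later minus earlier time, for the 6 largest in each direction.

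From D0.75 to D1.5 the contrast rose by 3.35 for Stra8, 3.06 for Hoxb1, 2.89 for Rarb, 2.46 for Csn3, 2.10 for Cldn11, a tight junction protein, and 2.06 for Angpt2. It changed by −1.93 for Chodl, a membrane lectin, −1.69 for Enpp2, −1.66 for Dkk1, −1.61 for Ptx3, a secreted pentraxin, −1.45 for Ldhd, which oxidizes D-lactate, and −1.42 for Ppp1r1a, an inhibitor of protein phosphatase 1. Chodl and Ptx3 were at 0.80 and 0.44 at D0.75 and at −1.13 and −1.17 at D1.5. In AGN at D1.5 no library had more than 5 counts of Stra8, 6 of Csn3 or 9 of Hoxb1. The size of the changes of Stra8, Csn3 and Hoxb1 therefore depends on the prior count of the fit. Without CD1530 replicate 1 at D0.75, the library that stood apart, Ptx3 was at −1.08 with an adjusted p of 0.115 and no longer passed, while the other 11 changes lay between −1.91 and 3.44 with adjusted p-values of at most 0.000281. Without that library 1433 genes were called, of which 1163 were among the 1541.

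From D1.5 to D2.5 the contrast rose by 3.94 for Sox1, a neural factor, 3.84 for Hoxb1, 2.88 for Csn3, 2.88 for Cdx1, 2.83 for Rarb and 2.63 for Cyp26a1. In AGN at D2.5 no library had more than 3 counts of Hoxb1 or Cdx1 or more than 6 of Csn3 or Rarb, so the size of these 4 changes depends on the prior count of the fit. The contrast changed by −2.10 for Hapln1, a link protein of cartilage matrix, −1.96 for Vrtn, −1.93 for Acan, −1.77 for Fgf5, −1.71 for Hpgd, which inactivates prostaglandins, and −1.70 for Pak6, a kinase. Hapln1, with 9.72 CPM in CD1530 and 8.81 CPM in AGN at D1.5, had stood at 41.4 against 20.2 CPM at D0.75 and came to 2.31 against 9.08 CPM at D2.5. Hpgd was higher in CD1530 at D1.5 (log2 fold change 0.66) and lower at D2.5 (−1.04).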

How the results depend on the processing

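The number of genes called at D1.5 was between 4450 and 5462 under the alternative scalings, filters, tests, fits and blocks, and between 3727 and 4060 without any 1 library (2106 to 2302 higher, 1588 to 1758 lower). With a minimum absolute log2 fold change of 1 it was 738 (460 higher, 278 lower). With AGN replicates 2 and 3 left out together, which leaves 1 AGN library assumed to vary like the other groups, it was 2512 (1467 higher, 1045 lower), and 2439 of these were called in the same direction with all libraries. DESeq2 size factors gave 2403 higher and 2234 lower and moved the median of all genes to −0.005. The change from D0.75 was called for 1080 genes (without AGN D1.5 replicate 3) to 2201 genes (without CD1530 D0.75 replicate 2), and for 649 when only the 12 libraries of D0.75 and D1.5 were fitted; the change to D2.5 for 1655 to 1830 genes without any 1 library. Same-numbered replicates did not deviate together (correlations of −0.108 to −0.0292). The deviations also carry the trends with exon length, so the correlations cannot show whether the numbers pair the samples. With the replicate block 4536 genes were called, and 4992 with the block in the 6 libraries alone.

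Of the 159 genes named in the report or for a changed contrast, 131 were called at D1.5 and 115 of these kept their call and sign in every alternative run. Sign changes were confined to 7 uncalled genes. Without any 1 library the log2 fold changes ran from −0.071 to 0.014 for Col1a1, −0.038 to 0.058 for Crabp1, −0.0073 to 0.042 for Lefty2, −0.16 to 1.11 for Neurog2, −0.011 to 0.078 for Ptch1 and −0.76 to 0.013 for Tbx6. Crabp1 was at −0.0026, −0.0029, −0.00018, −0.0011 and −0.0024 with DESeq2 size factors, library size, the 6 libraries, the block in them and DESeq2. Ptch1 was at −0.044 with the correction for length and GC content, and Eif1a at −0.017 with AGN replicate 1 alone. The causes were not tested. Depth limits genes under about 3 counts in a library, such as Msgn1.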
